A study of Mus musculus with 33 samples.

Results

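The 38 genes described here make up the machinery that transcribes transfer RNA (tRNA) genes and turns the transcripts into finished tRNAs in the mouse. They were chosen by name for their known roles and were found by gene symbol among 54752 genes of the forebrain and hippocampus RNA tables and 22523 genes of the footprint tables. They hold 9 subunits of RNA polymerase III (Pol III), 3 genes of the initiation factor TFIIIB, 6 genes of TFIIIC, the repressor Maf1, 4 genes of tRNA end processing, 5 of tRNA splicing, the nuclear export receptor Xpot, and 9 of tRNA modification. The question was whether this machinery responds when 1 tRNA gene is lost. That gene is n-Tr20, a nuclear tRNA gene for arginine that reads AGA codons and is expressed in neurons. RefSeq lists it as n-TRtct5 on chromosome 1 (173390329 to 173390402, GRCm38.p6), where it spans 74 bases, and lists another 4 mouse genes of the same anticodon that span 85 to 87 bases each.

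Forebrain RNA was sequenced from mice aged 8 weeks in 5 groups of 4. The B6J knockout mice were C57BL/6J (B6J) animals homozygous for the n-Tr20 deletion. The B6J mice carried the strain's own n-Tr20, which the labels describe as a hypomorphic mutant. The B6J transgenic mice were B6J animals with a transgene of the B6N n-Tr20. The B6N knockout mice were C57BL/6NJ (B6N) animals homozygous for the deletion, and the B6N mice had wild-type n-Tr20. Hippocampus of B6N knockout and B6N mice, also aged 8 weeks, was used for 3 libraries of poly(A) RNA and 3 of ribosome footprints per genotype. Footprints are the pieces of mRNA that ribosomes protect from nuclease, so their counts follow how many ribosomes sit on a transcript. The deletion is not limited to 1 cell type, the transgene's copy number and promoter are not given in the labels, and tRNA levels, n-Tr20 included, were not analysed here, so the genotypes are taken from the labels.

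Pol III transcribes short genes such as those of tRNAs and the small ribosomal RNA. TFIIIC binds the promoter elements inside a tRNA gene and recruits TFIIIB, which then places the polymerase, and the same TFIIIB can be used for round after round of transcription. New tRNA transcripts lose extra bases at both ends, some have an intron cut out, all receive a CCA end, and many of their bases are modified before or after export to the cytoplasm. The Maf1 protein shuts Pol III down when nutrients or growth signals fall. Neurons are sensitive to faults in these steps, and inherited defects of several of these genes affect the brain.

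Total counts ran from 14699162 to 38489757 per forebrain library, from 35825476 to 60426608 per hippocampus RNA library and from 7616107 to 17896587 per footprint library. Neuronal markers were high in every library, forebrain markers were present, and the 5 hippocampus markers summed to 942 to 1311 CPM in hippocampus RNA, against 290 to 373 CPM in forebrain. In footprints the same 5 markers were lower than in hippocampus RNA, at 473 to 541 CPM in knockout and 511 to 670 CPM in B6N. CPM is the normalised count, brought to a common library total by TMM scaling (trimmed mean of M values). By their titles, all 4 B6J knockout libraries and a library of transgenic number 4 belong to a second batch. The titles give transgenic number 4 in both batches. Both libraries were taken to be from the same mouse, with that of the second batch as a repeat. The labels do not give sex. By Xist and Ddx3y, 3 of the 4 B6J knockout mice were female and all other forebrain mice were male, and 1 hippocampus RNA knockout library was female. The labels give replicate numbers only, so p-values measure the spread between these libraries. A gene is said to have risen or fallen where edgeR's quasi-likelihood test gave an adjusted p under 0.05 over all genes tested (Benjamini-Hochberg).

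All 38 genes were detected in forebrain, mostly at modest levels. In B6N forebrain their median level was 6.23 TPM (a level per transcript length, brought to a common total), against a median of 4.26 TPM over 16341 protein-coding genes tested. Ssb, which encodes the La protein that binds the uridine tail of new Pol III transcripts and guards their ends, was the highest at 36.8 ± 3.66 TPM in B6N knockout and 32.8 ± 2.07 TPM in B6N forebrain (SD, n = 4 each). Next came Rtcb, the ligase that joins the cut tRNA pieces in splicing, with 19.2 ± 0.888 TPM in B6N knockout and 20.3 ± 1.06 TPM in B6N forebrain. Gtf3c1, the largest TFIIIC subunit, had 18.0 ± 1.15 TPM in B6N knockout and 18.2 ± 2.01 TPM in B6N forebrain, and these neighbours in the order overlapped in range. The levels depend on the transcripts used. With TPM recomputed over coding transcripts alone, the median of the 38 genes in B6N was 26.2 TPM. Trnt1, with 90.5 TPM in B6N knockout and 89.1 TPM in B6N, and Elp3, with 75.8 TPM in B6N knockout and 75.9 TPM in B6N, then passed Gtf3c1, with 65.1 TPM in B6N knockout and 67.8 TPM in B6N. The lowest were the deaminases. Adat1 had 1.47 TPM in B6N knockout and 1.55 TPM in B6N forebrain, and Adat2 had 1.22 and 0.916 TPM in the same groups. Adat3, with 0.337 TPM in B6N knockout and 0.237 TPM in B6N forebrain, rested on 2.35 to 23.2 estimated counts per forebrain library.

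Within the polymerase, the subunits did not share 1 level. Polr3f, part of the initiation trimer, and Polr3a, the largest catalytic subunit, stood at 6.90 and 6.90 TPM in B6N knockout and at 6.91 and 6.45 TPM in B6N forebrain. Polr3b, the partner of Polr3a in the catalytic centre, was lower, at 2.71 ± 0.283 TPM in B6N knockout and 3.30 ± 0.486 TPM in B6N forebrain. Polr3gl and Polr3g encode alternative versions of 1 trimer subunit, and the second is known from stem cells and dividing cells. Polr3gl exceeded Polr3g in every group. The ratio of their TPM was 4.15 ± 0.67 in B6N knockout and 3.93 ± 0.83 in B6N (SD, n = 4 each). It was 4.42 ± 0.70 in B6J knockout, 4.54 ± 0.54 in B6J and 3.72 ± 1.64 in B6J transgenic forebrain (SD, n = 4 each), so the ranges of all 5 groups overlapped.

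**Figure D1:**
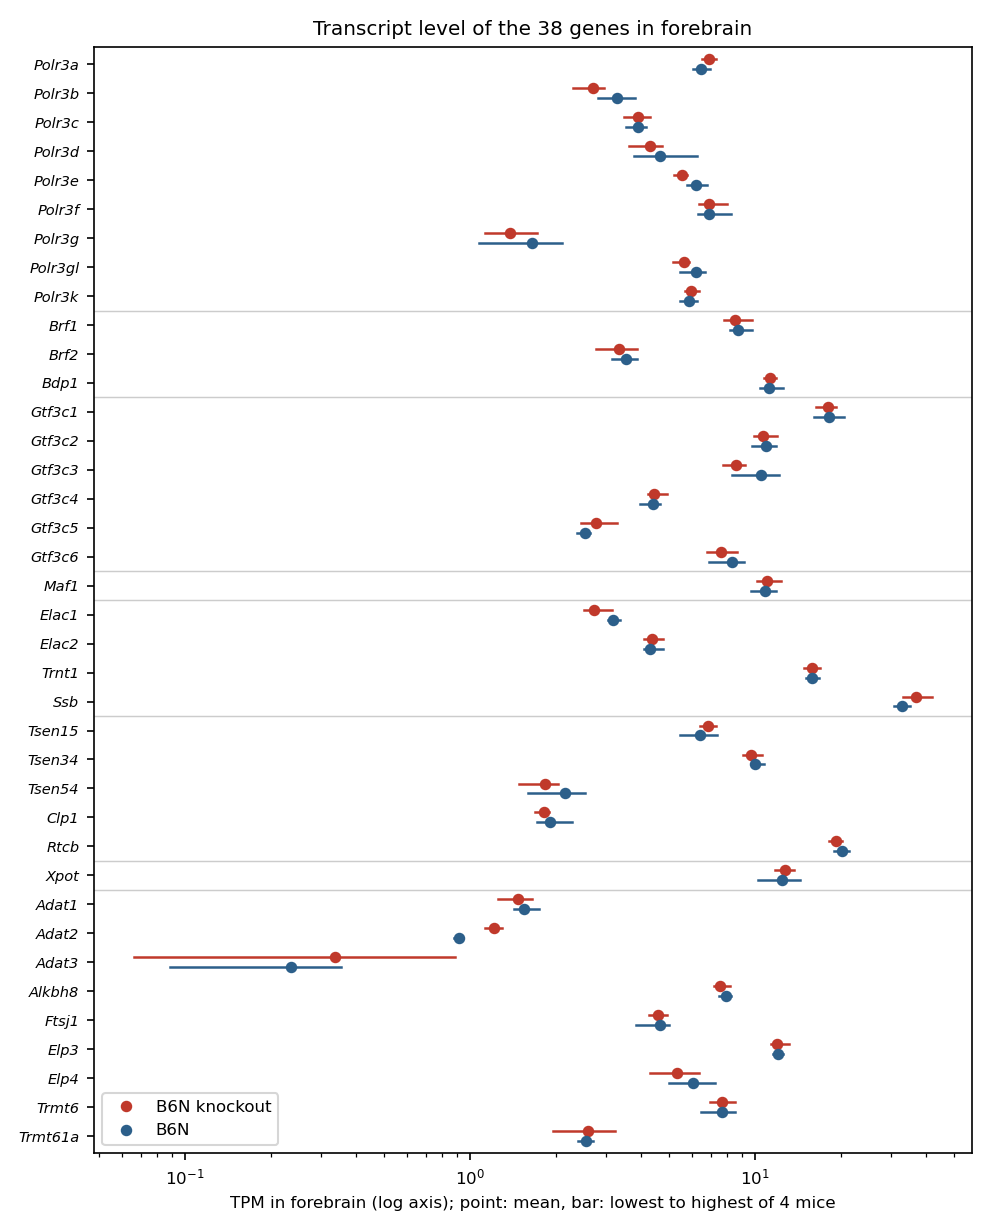
Level of the 38 genes in forebrain in TPM on a log axis, with B6N knockout above B6N for each gene; points are means and bars run from the lowest to the highest of 4 mice. Ssb is the highest at 36.8 TPM in B6N knockout and 32.8 TPM in B6N, Adat3 is the lowest, and the ranges of most genes overlap between genotypes.

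Loss of n-Tr20 in B6N forebrain left most of these genes inside a 1.2-fold change of their B6N level, and Ssb alone was called. Ssb rose 1.15-fold in B6N knockout. Of the 38 genes, 1 was called higher and 0 lower, beside 1.11 percent of 25151 genes called higher and 0.807 percent called lower in this comparison. DESeq2 also called Ssb alone of the 38, among 559 genes it called in all. The median log2 fold change over the 38 genes was 0.02, against 0.00 over all genes, and 23 were positive and 15 negative. An unadjusted p under 0.05 was reached by 5 of the 38 (Ssb, Adat2, Elac1, Polr3e and Xpot), beside 12.7 percent of all genes. For 30 of the 38 the estimate with 2 SE on either side stayed inside a 1.2-fold change, the exceptions being Ssb, Adat2, Adat3, Elac1, Polr3e, Polr3g, Polr3gl and Tsen54.

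Ssb lies on chromosome 2 (69861562 to 69871846, RefSeq GRCm38.p6). It had 76.0, 74.5, 76.7 and 77.0 CPM in B6N knockout forebrain, against 63.5, 64.8, 68.7 and 67.6 CPM in B6N forebrain. All 4 knockout libraries lay above all 4 B6N libraries. The groups did not overlap for Ssb, Xpot and Adat2 (higher) and Polr3e (lower), while 4.62 percent of all genes were separated upward and 3.98 percent downward. The log2 fold change of Ssb was 0.20 ± 0.04 (SE), with an adjusted p of 0.00601 by edgeR's quasi-likelihood test. With each library left out in turn it was 0.18 to 0.22, and with an offset for transcript length it was 0.21 with an adjusted p of 0.114 (edgeR), so that the call ended. In bulk tissue, a change in RNA per cell and a change in the share of a cell type cannot be told apart. Most of the Ssb estimate came from 1 coding transcript, Ssb-201, with 62.8 ± 8.9 percent of the gene's counts in B6N knockout and 61.6 ± 7.5 percent in B6N (SD, n = 4 each), so its share differed by less than the spread between mice.

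Xpot, on chromosome 10 (121587380 to 121626506, RefSeq GRCm38.p6), encodes exportin-t, which carries mature tRNAs out of the nucleus. It had 92.3, 93.1, 91.3 and 90.8 CPM in B6N knockout forebrain, against 86.3, 85.6, 85.4 and 85.8 CPM in B6N forebrain. The groups were narrow and apart, but the difference was small, at a log2 fold change of 0.10 ± 0.04 (SE), and was not called (edgeR adjusted p = 0.282). Adat2, the catalytic subunit of the enzyme that makes inosine at the wobble position, had 3.22, 2.90, 3.53 and 2.93 CPM in B6N knockout, against 2.24, 2.47, 2.25 and 2.24 CPM in B6N. These low values were also apart, with a log2 fold change of 0.45 ± 0.14 (SE) and an edgeR adjusted p of 0.0905.

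Polr3e and Elac1 pointed the other way without a call. Polr3e, which pairs with Polr3d in a part of Pol III needed for initiation and termination, had 33.2, 33.4, 32.6 and 33.9 CPM in B6N knockout, against 35.5, 37.8, 36.9 and 37.6 CPM in B6N. Its log2 fold change was -0.15 ± 0.06 (SE, edgeR adjusted p = 0.202), and it was called lower when only these 2 groups entered the fit. Elac1 is the short form of RNase Z, which repairs the ends of tRNAs cut on stalled ribosomes. It had 22.7, 21.1, 22.4 and 24.8 CPM in B6N knockout, against 26.4, 26.6, 25.3 and 24.5 CPM in B6N, so that knockout mouse 4 alone reached the B6N range. The log2 fold change was -0.18 ± 0.06 (SE, edgeR adjusted p = 0.138), and without knockout mouse 4 Elac1 was called lower.

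Adat3 had the lowest estimate of the 38 genes and the least precise. It had 0.226, 0.268, 1.01 and 0.628 CPM in B6N knockout, against 1.05, 0.706, 0.245 and 0.747 CPM in B6N, with overlapping values and a log2 fold change of -0.30 ± 0.49 (SE, edgeR adjusted p = 0.878), while its mean TPM was higher in B6N knockout.

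Over the 9 polymerase subunits the log2 fold changes ran from -0.15 (Polr3e) to 0.09 (Polr3k, a small subunit that helps to cut back the transcript), with a median of 0.01. Polr3g had 4.29, 4.64, 4.98 and 5.02 CPM in B6N knockout and 4.96, 4.68, 5.15 and 5.27 CPM in B6N, and Polr3gl had 8.18, 8.08, 9.08 and 8.41 CPM in B6N knockout and 8.73, 8.998, 9.96 and 8.76 CPM in B6N. Both pairs of groups overlapped, at log2 fold changes of -0.08 ± 0.10 and -0.11 ± 0.09 (SE). The TFIIIB genes ran from -0.07 (Brf1, which acts at tRNA genes) to 0.03 (Bdp1, which closes the complex on DNA), and Brf2, the version used at promoters of the U6 type, was at -0.01. The 6 TFIIIC genes ran from -0.02 to 0.04. Maf1 had 28.0, 29.6, 28.4 and 29.5 CPM in B6N knockout and 28.9, 28.2, 27.9 and 28.9 CPM in B6N, with fully mixed values and a log2 fold change of 0.02 ± 0.06 (SE).

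Among the other processing enzymes, Elac2, the RNase Z that removes the 3′ trailer, was at 0.07 ± 0.06 and Trnt1, which adds the CCA end, at 0.06 ± 0.06 (log2 fold change, SE). The splicing genes (Tsen15, Tsen34 and Tsen54 of the endonuclease, the kinase Clp1 bound to it, and Rtcb) ran from -0.07 to 0.05. Among the modification genes, those acting on the wobble uridine of the arginine tRNA family were near 0 as well. Elp3, the catalytic subunit of the Elongator complex, was at 0.05 ± 0.04, its partner Elp4 at -0.05 ± 0.07, and Alkbh8, the methyltransferase of the next step, at -0.00 ± 0.05. Trmt6 and Trmt61a, the pair that methylates an adenosine in the T loop, were at 0.05 and 0.10, and the anticodon loop methyltransferase Ftsj1 was at 0.03.

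Summed over the 38 genes, B6N knockout libraries held 1197 to 1209 CPM and B6N libraries 1170 to 1197 CPM. Without Ssb, Xpot and Elp3 the sums were 965 to 977 CPM in B6N knockout and 957 to 983 CPM in B6N. Neuronal markers summed to 3964 to 4156 CPM in B6N knockout and 3927 to 3968 CPM in B6N, and choroid plexus markers to 52.8 to 338 CPM in B6N knockout and 54.5 to 245 CPM in B6N. No marker of the 10 lists was called in this comparison, and the part of tissue makeup in the Ssb result was not tested.

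**Figure D2:**
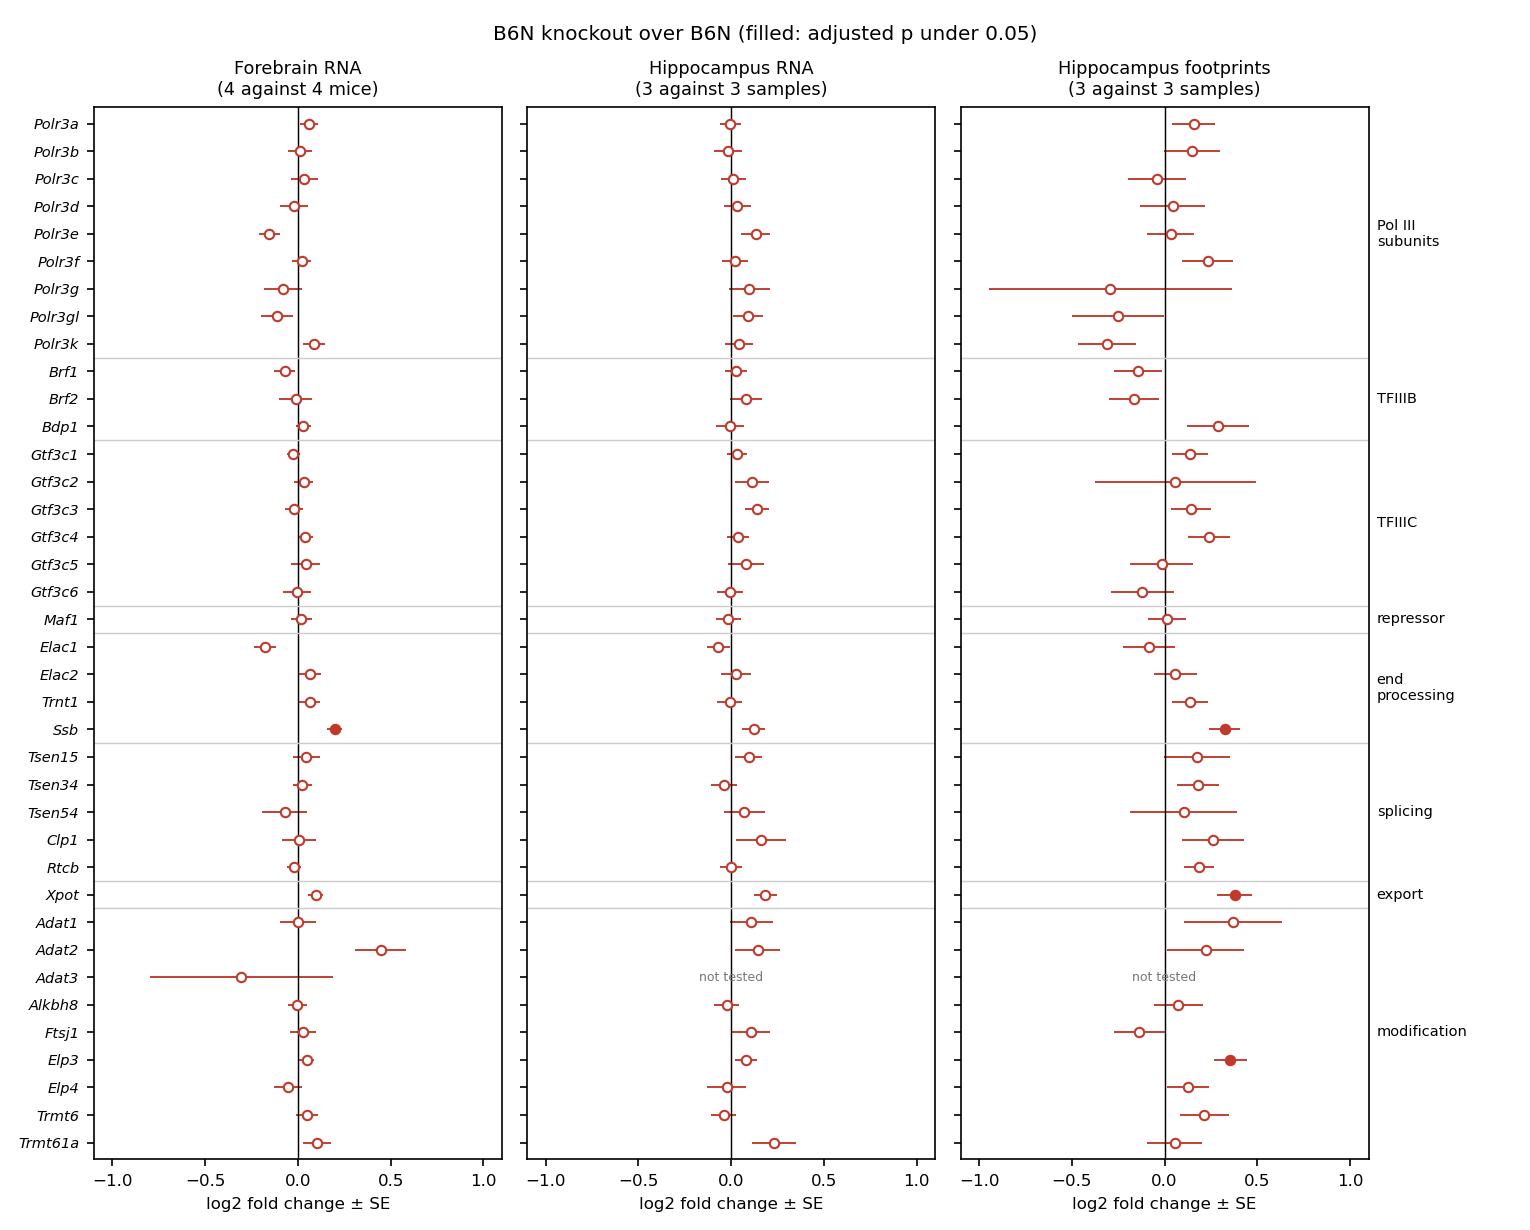
Log2 fold change of B6N knockout over B6N for each of the 38 genes (points, with bars of 1 SE) in forebrain RNA, hippocampus RNA and hippocampus footprints; filled points had an adjusted p under 0.05 by edgeR's quasi-likelihood test. Ssb is filled in forebrain RNA at 0.20, and Ssb, Xpot and Elp3 are filled in footprints at 0.32, 0.38 and 0.35, where the error bars are longer.

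In B6J mice, where n-Tr20 is reduced rather than absent, 0 of the 38 genes were called against B6J transgenic mice. In that comparison 0.171 percent of 25151 genes were called higher and 0.0795 percent lower by edgeR. The median log2 fold change was -0.01, with 16 genes positive and 22 negative. Elac1 was the only one of the 38 with an unadjusted p under 0.05, beside 10.3 percent of all genes. DESeq2 called Elac1 alone of the 38, among 157 genes it called in all. Elac1 had 21.1, 21.8, 25.4 and 22.3 CPM in B6J, against 27.2, 26.0, 27.5 and 26.7 CPM in B6J transgenic forebrain of the same batch. The groups did not overlap, as for 2.47 percent of all genes in this direction and 2.58 percent in the other. The log2 fold change was -0.25 ± 0.06 (SE, edgeR adjusted p = 0.0673), and without B6J mouse 3 Elac1 was called lower.

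Ssb was the next by p. It had 71.7, 69.0, 68.5 and 67.1 CPM in B6J, against 61.1, 63.5, 68.2 and 68.8 CPM in B6J transgenic mice. The ranges overlapped, and the log2 fold change was 0.08 ± 0.04 (SE, edgeR adjusted p = 0.532). The Ssb effect of B6N knockout over B6N was larger by 0.12 ± 0.06 on the log2 scale than that of B6J over B6J transgenic (edgeR adjusted p of the difference = 0.616). This difference between effects was called for 0 of the 38 genes by edgeR, beside 0.0199 percent of all genes called higher and 0.0398 percent lower. It reached an unadjusted p under 0.05 for 0 of the 38 and for 8.19 percent of all genes, and DESeq2 called 0 of the 38. Polr3a had the second smallest p, with a difference of 0.12 ± 0.07.

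Between strains, B6J against B6N also gave 0 calls among the 38 (1.21 percent of all genes were called higher and 0.513 percent lower by edgeR), and DESeq2 gave 0. Elac1, Adat2 and Polr3e reached an unadjusted p under 0.05, which 12.8 percent of all genes did. B6J mice had the Elac1 values given above, against 26.4, 26.6, 25.3 and 24.5 CPM in B6N, at a log2 fold change of -0.19 ± 0.06 (SE, edgeR adjusted p = 0.116). Adat2 had 2.55, 3.43, 2.91 and 3.23 CPM in B6J, against 2.24, 2.47, 2.25 and 2.24 CPM in B6N, a separation found upward in 5.3 percent and downward in 3.77 percent of all genes, at 0.40 ± 0.14 (edgeR adjusted p = 0.169). This comparison shares the B6N mice with that of B6N knockout, so the likeness of their Elac1, Adat2 and Polr3e values is not independent. Elac1 was called without B6J mouse 3. In this comparison 2 of 5 striatum markers were called higher, with sums of 314 to 344 CPM in B6J and 259 to 292 CPM in B6N, and 2 of 5 meninges markers lower, with sums of 36.9 to 47.5 CPM in B6J and 50.1 to 67.7 CPM in B6N. Their part in these values was not tested.

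B6J transgenic against B6N, the strains with n-Tr20 present in both, gave 0 calls among the 38 genes by edgeR, beside 0.27 percent of all genes called higher and 0.0954 percent lower, and 0 calls with DESeq2. An unadjusted p under 0.05 was reached by 0 of the 38 and by 8.87 percent of all genes. None of the 38 was separated between groups (0 of 38), beside 2.41 percent of all genes upward and 2.32 percent downward. The smallest p belonged to Polr3e, with 32.8, 36.6, 34.5 and 32.5 CPM in B6J transgenic mice, against 35.5, 37.8, 36.9 and 37.6 CPM in B6N. The groups overlapped, at a log2 fold change of -0.12 ± 0.06 (SE, edgeR adjusted p = 0.574). Elp4, which helps Elongator to bind tRNA, had 12.3, 10.2, 11.5 and 11.6 CPM in B6J transgenic and 11.2, 13.1, 13.1 and 12.7 CPM in B6N mice, at -0.14 ± 0.08. Of the 38 genes, 33 stayed inside a 1.2-fold change with 2 SE on either side in this comparison, 29 in B6J against B6N and 30 in B6J against B6J transgenic.

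B6J knockout mice lacked n-Tr20 on the B6J background and were compared with B6J transgenic mice across 2 batches, with the batch difference set by the pair of libraries of transgenic mouse 4. None of the 38 genes was called (0 of 38 by edgeR, beside 0.546 percent of 25481 genes called higher and 0.192 percent called lower). DESeq2 called Rtcb alone of the 38, among 460 genes it called in all. Rtcb, Adat1, Polr3b, Gtf3c5 and Elac1 reached an unadjusted p under 0.05, beside 11.6 percent of all genes. The comparison was less precise than those within batch 1. The median SE was 0.12, against 0.06 for B6N knockout over B6N, and for 7 of the 38 genes the estimate with 2 SE on either side stayed inside a 1.2-fold change.

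Rtcb had 74.9, 68.9, 72.7 and 75.0 CPM in B6J knockout forebrain, against 69.7, 69.0, 71.6 and 74.1 CPM in the first-batch libraries of B6J transgenic mice. These values overlapped. The fitted log2 fold change of 0.25 ± 0.08 (SE, edgeR adjusted p = 0.13) includes the batch difference of transgenic mouse 4, which had 63.7 CPM in the second batch and 74.1 CPM in the first. Adat1, which deaminates an adenosine beside the anticodon of alanine tRNA, had 9.03, 8.92, 10.5 and 8.70 CPM in B6J knockout, against 7.02, 7.93, 8.23 and 9.71 CPM in B6J transgenic mice, the fourth of which had 7.82 CPM when repeated. Its log2 fold change was 0.49 ± 0.18 (SE, edgeR adjusted p = 0.222). Without the batch term neither gene was called, and 8 others were, among 3615 genes called in all.

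Ssb had 88.7, 72.8, 95.0 and 86.2 CPM in B6J knockout forebrain, against 78.0 CPM in the repeat library of transgenic mouse 4 in the same batch and 61.1, 63.5, 68.2 and 68.8 CPM in the first-batch transgenic libraries. Knockout mouse 2 was thus below the repeat library and the other 3 above it. The batch-adjusted log2 fold change was 0.21 ± 0.10 (SE), close in size to the 0.20 of B6N knockout but with an edgeR adjusted p of 0.442. The difference between these knockout effects was 0.01 ± 0.12. For Elac1 the repeat library had 29.5 CPM, above the 25.2, 24.8, 26.0 and 25.2 CPM of B6J knockout mice, at a log2 fold change of -0.23 ± 0.11 (edgeR adjusted p = 0.429). Xpot had 91.5, 86.5, 93.7 and 89.2 CPM in B6J knockout and 83.8 CPM in the repeat library, at 0.01 ± 0.08.

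Against B6J mice, B6J knockout gave 0 calls by edgeR (beside 0.0903 percent of all genes called higher and 0.0157 percent lower) and 0 by DESeq2, and unadjusted p under 0.05 for Rtcb and Polr3b (8.02 percent of all genes). Polr3b had 20.2, 17.8, 19.0 and 18.0 CPM in B6J knockout, against 18.8, 16.6, 16.9 and 17.4 CPM in B6J mice, and the ranges overlapped. Its log2 fold change was 0.40 ± 0.14 (SE, edgeR adjusted p = 0.397), and the repeat library of transgenic mouse 4 held 15.8 CPM where the first held 19.4. Rtcb was at 0.23 ± 0.09 and Elac1 at 0.02 ± 0.13 in this comparison. The difference between the B6J knockout effect over transgenic and the B6N knockout effect was called for 0 of the 38 by edgeR and by DESeq2, beside 0.169 percent of all genes called higher and 0.0746 percent lower by edgeR. Rtcb, Adat1 and Polr3b had an unadjusted p under 0.05 for this difference, as did 10.1 percent of all genes. For Rtcb it was 0.28 ± 0.09 (edgeR adjusted p = 0.189).

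Some marker sums and sex differed between the B6J knockout group and other B6J groups. All B6J knockout libraries were of the second batch, and these sums were not adjusted for batch. The 12 choroid plexus markers summed to 457 to 625 CPM in B6J knockout, 48.7 to 546 CPM in B6J and 56.8 to 110 CPM in B6J transgenic forebrain. Oligodendrocyte markers summed to 1981 to 2506 CPM in B6J knockout, 2463 to 2953 CPM in B6J and 2551 to 2933 CPM in B6J transgenic forebrain. For both lists the sums of B6J knockout and B6J overlapped. No marker of either list was called by edgeR in B6J knockout over B6J transgenic or over B6J. Sex was female for 3 of 4 B6J knockout mice and for no other forebrain mouse. With a sex term, the knockout effect rests on B6J knockout mouse 4, the only male of its group. That fit cannot show the part of sex, so no conclusion is drawn from it. The parts of tissue makeup and sex in these values were not tested.

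**Figure D3:**
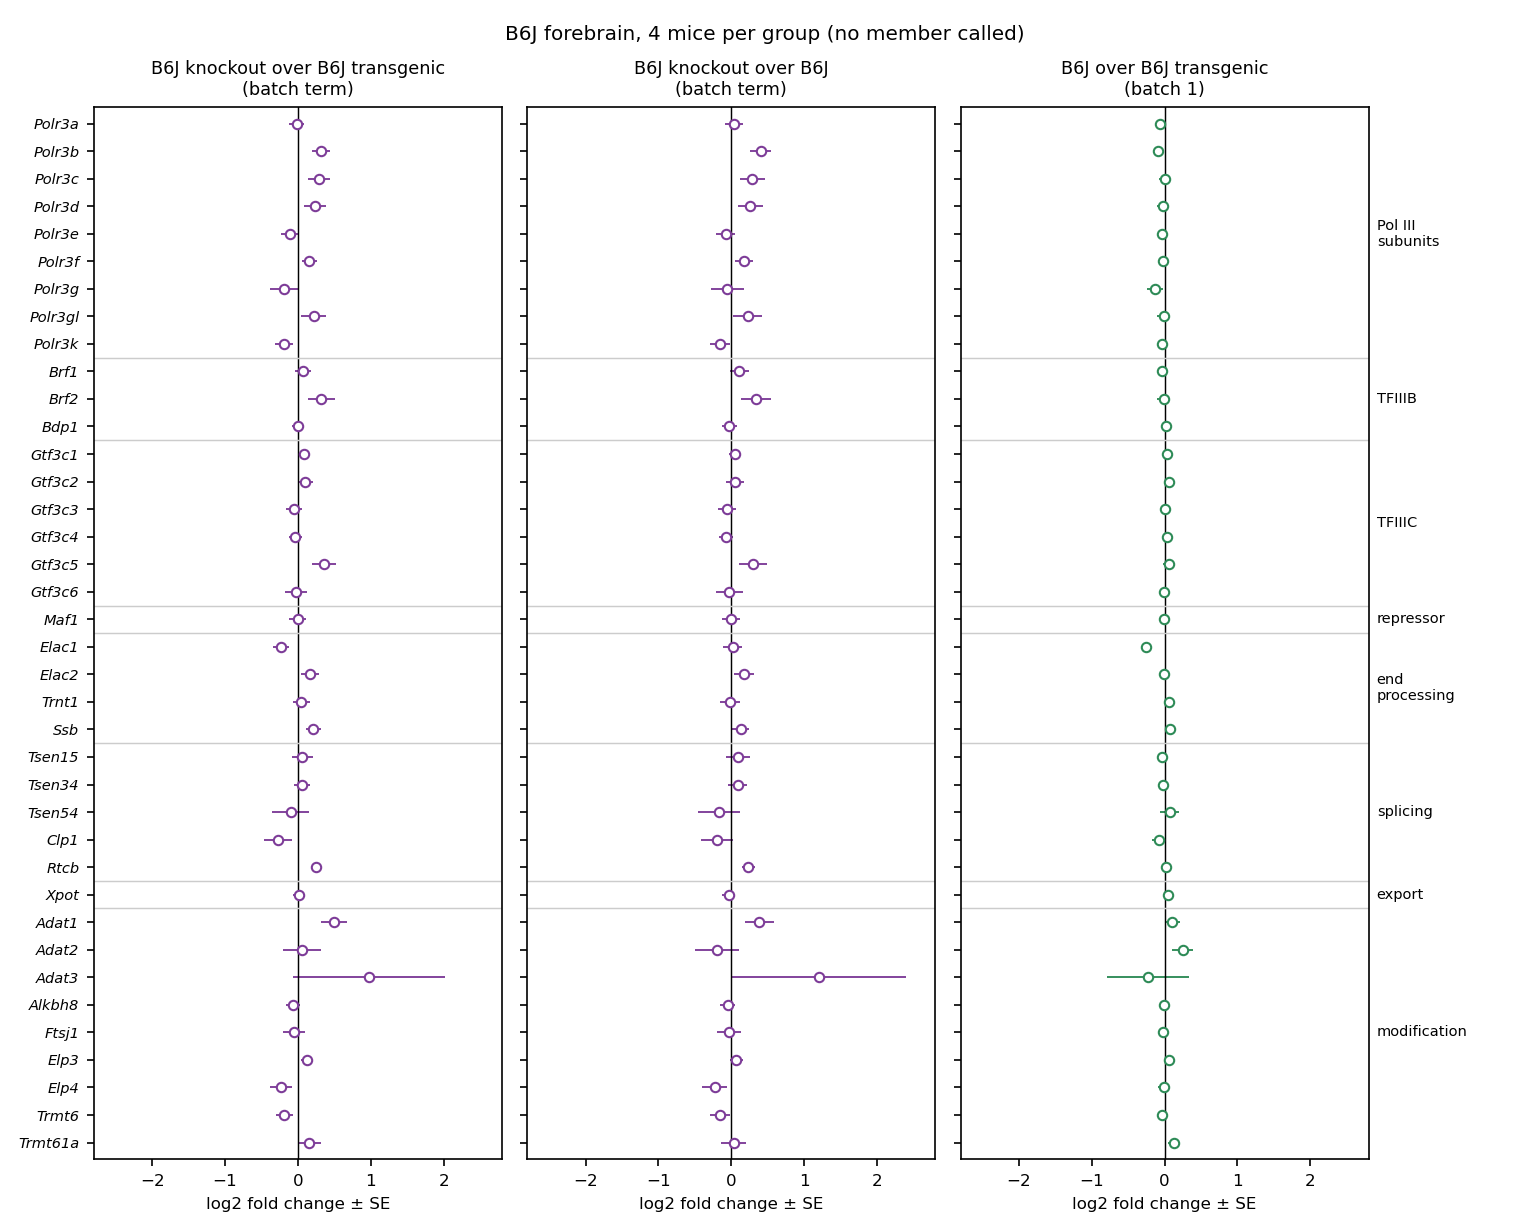
Log2 fold change (points, with bars of 1 SE) of the 38 genes in B6J forebrain for B6J knockout over B6J transgenic and over B6J, with a term for batch, and for B6J over B6J transgenic within batch 1. No gene had an adjusted p under 0.05, and the bars of the knockout comparisons are longer, with a median SE of 0.12 over transgenic mice against 0.06 within batch 1.

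In hippocampus RNA, 37 of the 38 genes passed the filter on low counts, and 0 were called in B6N knockout against B6N by edgeR or DESeq2. Few genes were called in this comparison at all (0.031 percent of 19352 higher and 0.0103 percent lower by edgeR). Adat3, the partner that Adat2 needs, was left out, with 0 counts in 11 of 12 hippocampus libraries. Its span shares 4773 bases with Scamp4, and how reads in shared spans were assigned is not given in the sources used here. Of the 37, 25 were positive and 12 negative, with a median log2 fold change of 0.03, and 25 stayed inside a 1.2-fold change with 2 SE on either side. Xpot alone had an unadjusted p under 0.05, beside 7.94 percent of all genes.

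Xpot had 119.6, 117 and 126 CPM in knockout hippocampus RNA, against 113, 101.5 and 104.5 CPM in B6N. Ssb had 108, 114 and 117.5 CPM in knockout, against 107.7, 98.1 and 106.5 CPM in B6N, and Gtf3c3, a TFIIIC subunit that contacts TFIIIB, had 40.2, 40.1 and 38.6 CPM in knockout, against 34.4, 37.5 and 36.1 CPM in B6N. In these 3 genes every knockout library lay above every B6N library, as in 7.0 percent of all genes, while 7.4 percent of all genes were separated downward. The log2 fold changes were 0.18 ± 0.06 for Xpot, 0.12 ± 0.06 for Ssb and 0.14 ± 0.06 for Gtf3c3 (SE), with edgeR adjusted p of 0.484, 0.667 and 0.65. Maf1 had 46.6, 53.1 and 48.1 CPM in knockout and 49.4, 49.6 and 50.3 CPM in B6N, at -0.02 ± 0.07. Polr3e, at -0.15 in B6N knockout forebrain, was at 0.13 ± 0.08 here. Oligodendrocyte markers summed to 3885 to 4625 CPM in knockout and 4683 to 6342 CPM in B6N hippocampus RNA, and choroid plexus markers to 87.2 to 4245 CPM in knockout and 115 to 2876 CPM in B6N. Their part in these values was not tested.

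In hippocampus footprints, Ssb, Xpot and Elp3 rose in B6N knockout by 1.25-fold, 1.30-fold and 1.28-fold. Of 37 genes tested, 3 were called higher and 0 lower by edgeR, beside 2.19 percent of 13227 genes called higher and 3.16 percent called lower. DESeq2 called the same 3 of the 37, among 1080 genes it called in all. Log2 fold changes were positive for 27 of 37 genes, against 50.6 percent of all genes, and their median was 0.12, against 0.00 over all genes. Rtcb was the fourth with an unadjusted p under 0.05, beside 22.0 percent of all genes.

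Ssb had 326, 336 and 323 CPM in knockout footprints, against 296, 249.6 and 240.3 CPM in B6N footprints. Xpot had 79.7, 76.1 and 79.3 CPM in knockout footprints, against 62.3, 56.2 and 62.5 CPM in B6N footprints. Elp3, on chromosome 14 (65530446 to 65593112, RefSeq GRCm38.p6), had 149.3, 149.7 and 155 CPM in knockout footprints, against 127, 122 and 106 CPM in B6N footprints. In all 3 genes the lowest knockout library was above the highest B6N library. The log2 fold changes were 0.32 ± 0.08, 0.38 ± 0.09 and 0.35 ± 0.09 (SE), with edgeR adjusted p of 0.0421, 0.0348 and 0.036.

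These calls sat close to the threshold. All 3 were kept without B6N library 1, and none of the 3 was called without B6N library 2 or 3 or without any 1 of the knockout libraries. Over these 6 fits the log2 fold changes stayed between 0.26 and 0.42 for Ssb, 0.33 and 0.40 for Xpot and 0.28 and 0.41 for Elp3. Their edgeR adjusted p ran from 0.0102 to 0.216, from 0.0367 to 0.144 and from 0.0259 to 0.202. With the replicate number as a block, 0 of the 3 were called, with edgeR adjusted p of 0.0515 for Ssb, 0.0533 for Xpot and 0.054 for Elp3, although the numbers did not pair the footprint libraries of the genotypes.

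Groups that did not overlap upward were found for 8 of the 37 genes (Ssb, Xpot, Elp3, Rtcb, Gtf3c4, Clp1, Polr3f and Trnt1), and for 12.9 percent of all genes. Downward there was 1, Brf2, beside 13.7 percent of all genes. Rtcb had 208, 210.2 and 186 CPM in knockout and 179.8, 179 and 173 CPM in B6N footprints, at 0.19 ± 0.08 (SE, edgeR adjusted p = 0.188). Maf1 had 48.3, 45.5 and 46.5 CPM in knockout and 47.4, 45.4 and 46.5 CPM in B6N footprints, nearly the same values in both, at 0.01 ± 0.10. Polr3gl had 5.69, 10.3 and 10.5 CPM in knockout and 11.9, 9.88 and 8.89 CPM in B6N footprints, with knockout library 1 apart, and Polr3g rested on 4 to 17 counts per library. For 1 of 37 genes the estimate with 2 SE on either side stayed inside a 1.2-fold change, so changes below that size were mostly not detectable in footprints.

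The 37 genes together held 1862, 1813 and 1782 CPM in knockout footprints and 1648, 1602 and 1603 CPM in B6N footprints. Without Ssb, Xpot and Elp3, which were picked because they were called here, the sums were 1225 to 1306 CPM in knockout and 1163 to 1194 CPM in B6N footprints. Such sums follow the most abundant genes, here Gtf3c1 and Rtcb, with means of 181 and 177 CPM in B6N footprints. No sums of other genes were set beside these, so they are descriptions. The summed level in hippocampus RNA was 1498 to 1531 CPM in knockout and 1436 to 1476 CPM in B6N. Footprint changes moved with transcript length over all genes. With genes split into 5 equal classes by transcript length, the median log2 fold change was -0.11 in the shortest class and 0.08 in the longest. The medians of these genes in the same 5 classes, short to long, were 0.17, 0.05, 0.09, 0.14 and 0.24 (5 to 12 genes a class). With each footprint library left out in turn they ran from 0.06 to 0.25, from -0.02 to 0.11, from 0.07 to 0.14, from 0.04 to 0.14 and from 0.14 to 0.26 in the 5 classes. The lowest values came without knockout library 1 (the shortest and longest classes), knockout library 3, B6N library 1 and B6N library 2. Without B6N library 2 the fourth class had a median of 0.04 over these genes and 0.05 over all genes. Without knockout footprint library 1, the deepest, the medians over all genes ran from -0.08 to 0.05.

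Marker sums differed between the footprint groups too. Astrocyte markers summed to 1399 to 1532 CPM in knockout and 1557 to 1674 CPM in B6N footprints, and microglia markers to 262 to 276 CPM in knockout and 296 to 353 CPM in B6N. Striatum markers summed to 74.7 to 138 CPM in knockout and 60.0 to 68.7 CPM in B6N footprints. Choroid plexus markers summed to 8161 to 18647 CPM in knockout and 6100 to 13420 CPM in B6N footprints, with wide spread within each genotype. Of 5 markers each, edgeR called 2 of microglia, 2 of hippocampus and 1 of oligodendrocytes lower and 2 of striatum higher. Of all genes, 3.16 percent were called lower and 2.19 percent higher. The 5 oligodendrocyte markers had a positive median log2 fold change of 0.18. Their sums overlapped, at 3255 to 3853 CPM in knockout and 3335 to 4183 CPM in B6N footprints. By edgeR 0 neuronal markers were called. Neuronal markers summed to 7265 to 7465 CPM in knockout and 6860 to 7574 CPM in B6N footprints. The part of tissue makeup and transcript length in the Ssb, Xpot and Elp3 results was not tested.

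**Figure D4:**
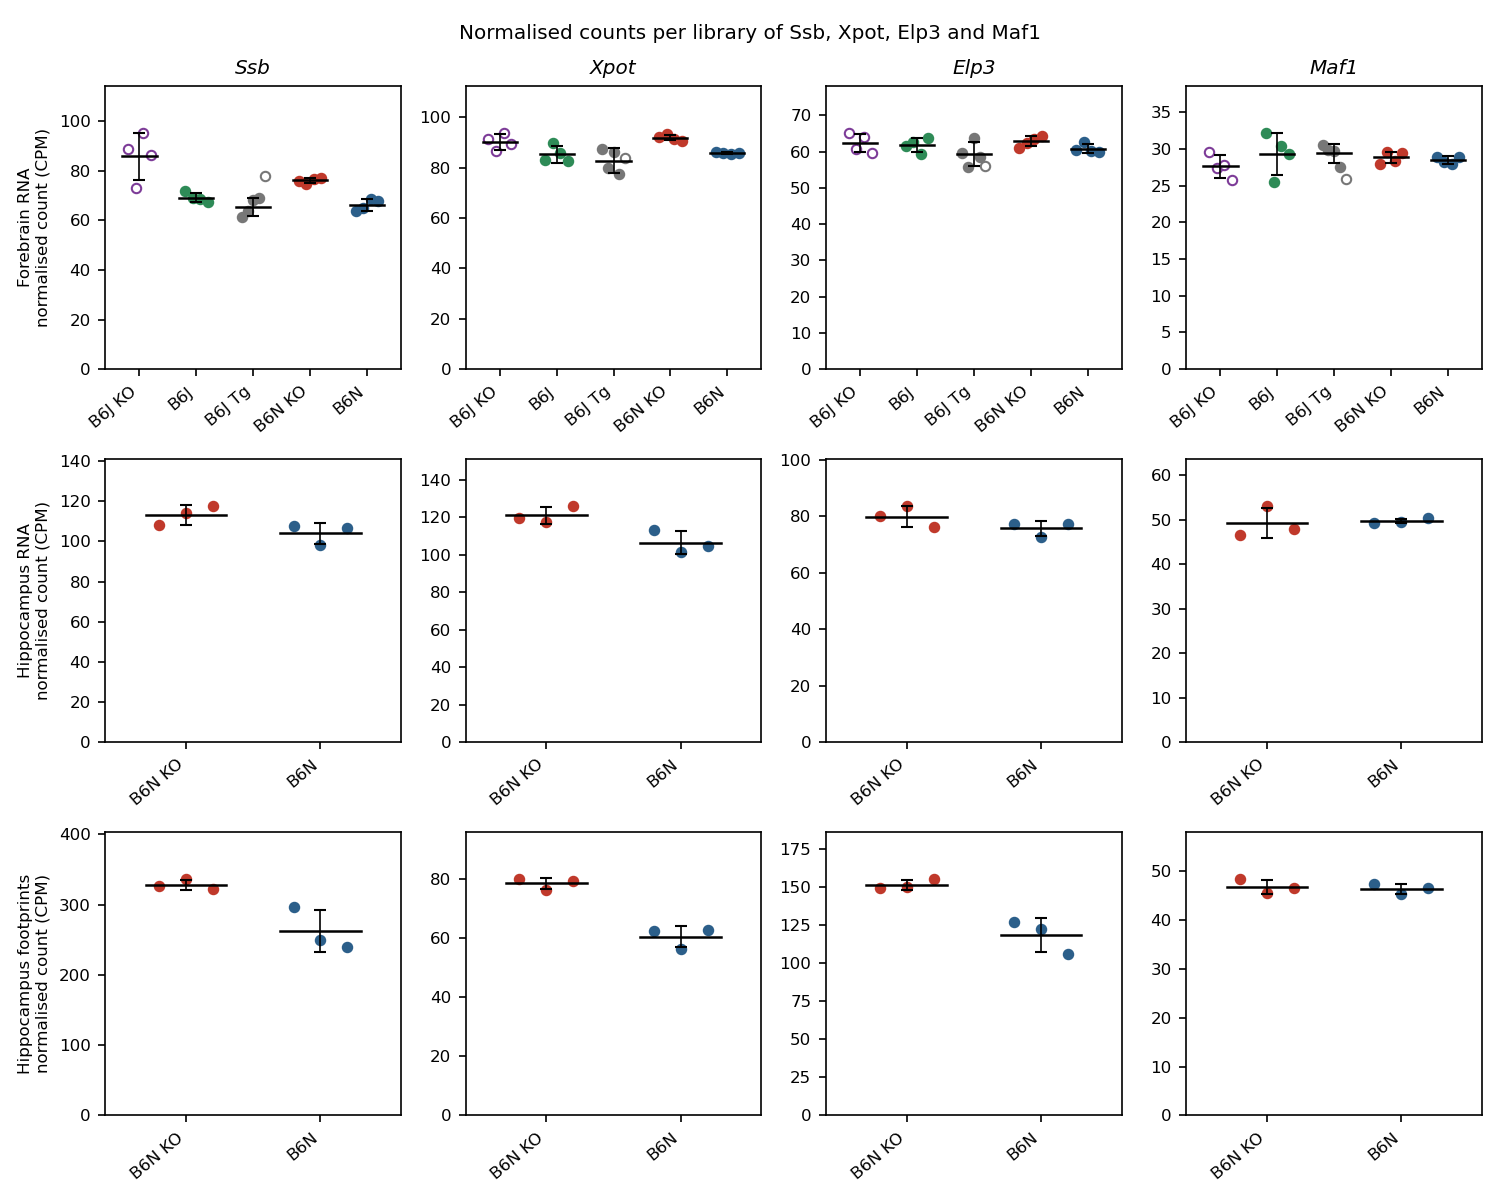
Normalised counts (CPM) of Ssb, Xpot, Elp3 and Maf1 in each library of forebrain RNA, hippocampus RNA and hippocampus footprints; points are libraries (KO, knockout, Tg, transgenic), open points belong to the second batch, lines are means and bars SD. In footprints the 3 knockout libraries lie above the 3 B6N libraries for Ssb, Xpot and Elp3, and for Maf1 both groups lie between 45.4 and 48.3 CPM.

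Whether footprints changed beyond RNA was tested over the 12 hippocampus libraries together as translational efficiency. It was called for 0 of the 37 genes by edgeR, and for 0.0 percent of 15202 genes, while DESeq2 called 494 genes, of which 0 were among the 37. Elp3 and Polr3k reached an unadjusted p under 0.05, beside 14.8 percent of all genes. Elp3 had 80.1, 83.5 and 76.1 CPM in knockout RNA and 77.1, 72.6 and 77.3 CPM in B6N RNA, an overlap that its footprints did not show. Its efficiency differed by 0.25 ± 0.11 on the log2 scale (SE, edgeR adjusted p = 0.306). Polr3k had 20.9, 21.03 and 26.9 CPM in knockout and 23.8, 32.5 and 29.0 CPM in B6N footprints, with an efficiency difference of -0.38 ± 0.17 (edgeR adjusted p = 0.317). For Ssb and Xpot the differences were 0.18 ± 0.11 and 0.17 ± 0.10. Knockout library 1 held the Y-linked Ddx3y at 0.336 CPM in RNA and at 45.5 CPM in footprints, where the other footprint libraries held 67.0 to 107 CPM, so its RNA and footprints did not come from the same single animal.

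The 37 genes spanned a wide range of footprints per RNA. The log2 ratio of mean footprint CPM to mean RNA CPM had a median of -0.07 over these genes in knockout and -0.10 in B6N hippocampus, the same to 2 decimals as the medians of 13151 genes tested in both assays. In B6N hippocampus Elp4 (1.47), Ssb (1.33), Rtcb (0.95), Ftsj1 (0.93) and Clp1 (0.88) were the highest. At the other end stood Gtf3c2 (-3.60), a subunit of the part of TFIIIC that binds the B box, then Polr3g (-2.25) and Bdp1 (-1.67), which lay at percentiles 0.479, 3.82 and 8.61 of all genes. Polr3gl was at -1.47 in knockout and -1.16 in B6N. These are levels between genes, and which part of a transcript was counted in each assay is not given in the sources used here, so a ratio can differ with the spans counted. Gtf3c2 and Polr3g had few footprints, at 2.44 and 1.34 CPM in B6N. Marker sums also differed between the assays. In B6N, choroid plexus markers summed to 6100 to 13420 CPM in footprints and 115 to 2876 CPM in RNA. Hippocampus markers summed to 511 to 670 CPM in footprints and 942 to 1057 CPM in RNA. The part of tissue makeup in the ratios was not tested.

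**Figure D5:**
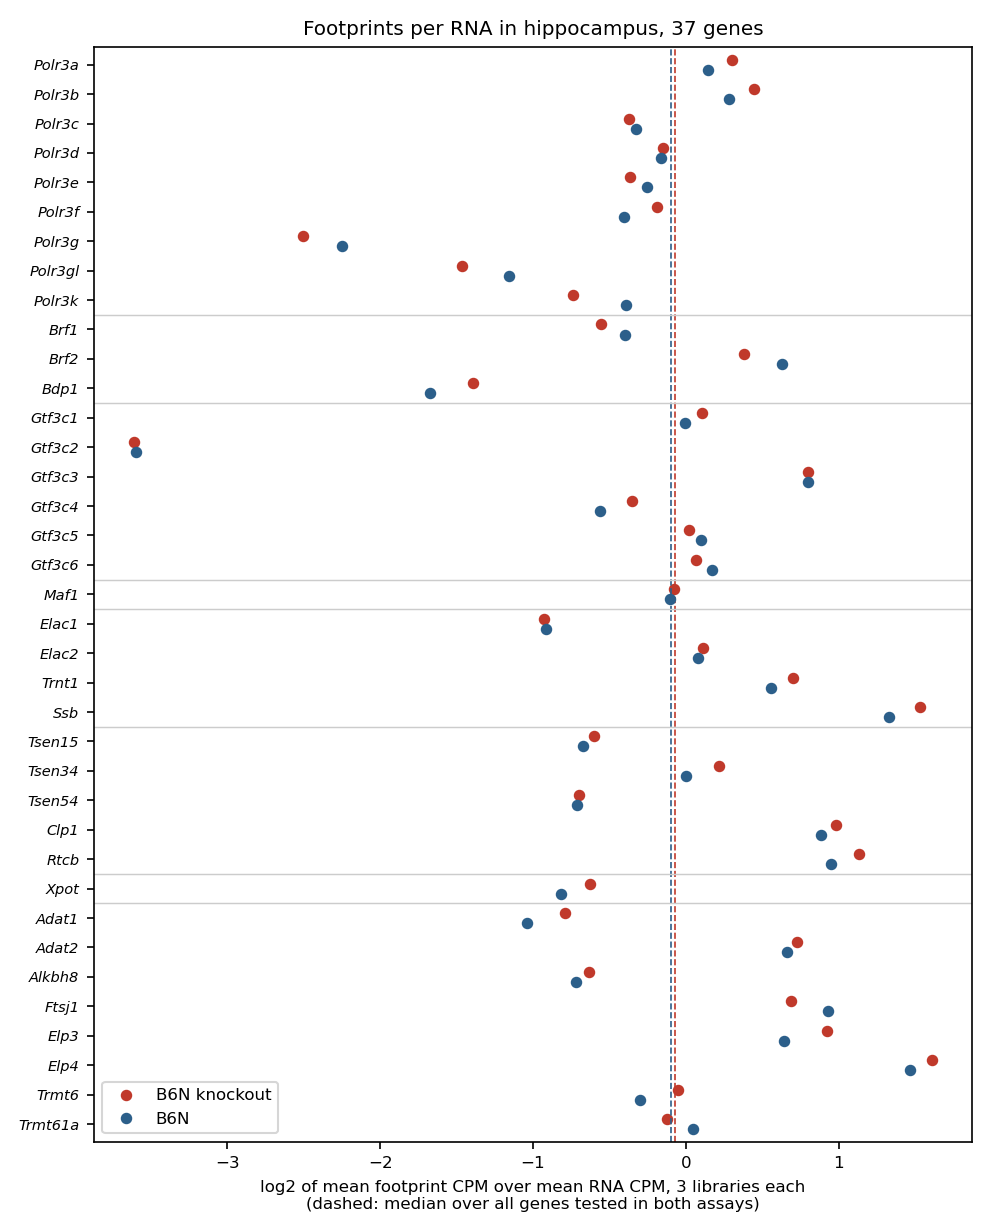
Log2 of mean footprint CPM over mean RNA CPM in hippocampus for 37 genes, with B6N knockout above B6N for each gene (3 libraries per assay and genotype); dashed lines are the medians of all genes tested in both assays, -0.07 in B6N knockout and -0.10 in B6N. Elp4 and Ssb are farthest to the right, Gtf3c2 is farthest to the left, and the genotypes lie close to each other for most genes.

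Another 95 genes of Pol III transcription and of tRNA maturation, modification and export were measured. In B6N knockout forebrain 2 of them rose and 0 fell, beside the 1.11 percent of all genes called higher and 0.807 percent called lower, with a median log2 fold change of 0.02. Snapc1, a subunit of the complex that binds promoters of small nuclear RNA genes, had 44.1, 43.8, 45.4 and 42.1 CPM in B6N knockout, against 36.9, 37.5, 38.4 and 38.1 CPM in B6N (0.21 ± 0.04, edgeR adjusted p = 0.00573). Larp7, a relative of Ssb that holds the 7SK RNA made by Pol III, had 13.0, 15.2, 14.3 and 13.2 CPM in B6N knockout, against 10.3, 12.3, 11.4 and 11.9 CPM in B6N (0.28 ± 0.07, edgeR adjusted p = 0.0351). Both were apart between groups. None of the 95 was called by edgeR in the other forebrain comparisons, and 0 of 94 tested in hippocampus RNA.

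In footprints 2 of the 95 rose and 3 fell, shares near the 2.19 percent of all genes called higher and 3.16 percent called lower, with a median of 0.02. Snapc1 again rose, with 49.9, 50.2 and 40.6 CPM in knockout, against 37.6, 31.5 and 29.5 CPM in B6N (0.52 ± 0.13, edgeR adjusted p = 0.036). Pou2f1, an activator of small nuclear RNA genes, had 4.48, 4.73 and 4.56 CPM in knockout, against 1.29, 2.61 and 1.24 CPM in B6N (1.43 ± 0.36, edgeR adjusted p = 0.0355). The Pou2f1 change rests on few footprints, and its hippocampus RNA had means of 27.5 CPM in knockout and 28.3 CPM in B6N. How this call fared with a library left out is not given. Pop7 and Pop5, protein subunits of RNase P, which trims the 5′ end of tRNAs, fell by 0.85 and 0.60 on the log2 scale. Pop7 had 13.2, 18.1 and 21.5 CPM in knockout and 29.1, 31.7 and 33.2 CPM in B6N footprints, and Pop5 had 31.9, 43.4 and 41.2 CPM in knockout and 49.6, 60.4 and 65.8 CPM in B6N. Polr2l, a small subunit shared by all 3 nuclear polymerases, fell by 1.17, with 3.39, 6.83 and 6.61 CPM in knockout and 12.8, 13.6 and 10.2 CPM in B6N footprints. In all 3 genes knockout library 1 was the lowest.

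Among 14 genes that modify the wobble uridine, Elp3 in footprints was the single call, beside 2.19 percent of all genes called higher there. The tRNA that reads AGA carries this modification. Over the 14, the median log2 fold change was 0.01 in B6N knockout forebrain, 0.01 in hippocampus RNA and 0.01 in footprints. The 20 cytosolic tRNA synthetases, which load tRNAs with amino acids, had more calls. In B6N knockout forebrain 12 of the 20 rose and 1 (Hars, for histidine) fell, with a median of 0.17. Of all genes, 1.11 percent were called higher and 0.807 percent lower there. In footprints 12 rose and 0 fell, with a median of 0.38, beside 2.19 percent of all genes called higher and 3.16 percent lower. Cars, for cysteine, rose by 0.49 ± 0.05 in forebrain (edgeR adjusted p = 8.45e-08), by 0.57 ± 0.06 in hippocampus RNA (0.0123) and by 0.67 ± 0.10 in footprints (0.00494). In B6J over B6J transgenic 2 of the 20 rose (Cars and Yars), beside 0.171 percent of all genes called higher. In B6J knockout over B6J transgenic 6 rose, beside 0.546 percent of all genes, where 0 of the 38 were called. In B6J over B6N 3 rose and 1 (Hars) fell, beside 1.21 and 0.513 percent of all genes. In B6J knockout over B6J 0 of the 20 were called. These lists were chosen with earlier results in view, so their counts are descriptions.

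The promoters of Ssb and Xpot are shown because these 2 genes rose and are in the RefSeq promoter table, which holds 27 of the 38 genes. Ssb was called in forebrain RNA and in footprints. Xpot was called in footprints only, and its RNA was not called in forebrain or hippocampus. Each window runs from 250 bases before to 50 bases after the start used in that table, which for Xpot lies inside the span given above and not at its outer end, and is written 5′ to 3′ on the strand of the gene. That of Ssb is chr2:69861312-69861611 (plus strand) and that of Xpot is chr10:121626283-121626582 (minus strand), both of GRCm38.p6. Capitals mark an E-box (CACGTG) and an AP-1 element (TGACTCA).
Ssb: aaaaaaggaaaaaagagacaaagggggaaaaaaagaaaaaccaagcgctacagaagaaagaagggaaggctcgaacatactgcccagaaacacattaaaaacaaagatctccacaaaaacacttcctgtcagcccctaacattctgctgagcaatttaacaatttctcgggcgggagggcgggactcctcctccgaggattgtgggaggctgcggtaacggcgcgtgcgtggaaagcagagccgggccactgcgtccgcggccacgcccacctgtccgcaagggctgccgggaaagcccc
Xpot: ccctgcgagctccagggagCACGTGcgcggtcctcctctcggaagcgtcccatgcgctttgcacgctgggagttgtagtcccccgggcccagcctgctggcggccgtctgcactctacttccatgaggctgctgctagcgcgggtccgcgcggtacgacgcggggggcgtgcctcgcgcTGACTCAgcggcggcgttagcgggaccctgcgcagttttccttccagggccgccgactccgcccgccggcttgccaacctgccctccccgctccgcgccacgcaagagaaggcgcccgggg
Both strands were searched for 4 motifs. The element of ATF4 and C/EBP (TGATGNAA) was in 0 of the 27 promoters, against 4.51 percent of 27025 genes. The E-box was in 7 (Polr3c, Polr3e, Polr3gl, Gtf3c6, Tsen54, Xpot and Trmt61a), against 8.09 percent of genes, and the AP-1 element in 1 (Xpot), against 5.95 percent. The cyclic AMP response element (TGACGTCA) was in 3 (Bdp1, Gtf3c1 and Trmt61a), against 2.03 percent. The Ssb window held none of the 4, and these matches are letters in a window and not shown to be bound.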

How the data were processed

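Forebrain files hold estimated counts and TPM for 138835 transcripts, deposited by the authors in the layout kallisto writes. Estimated counts were summed per gene and rounded, and TPM were summed per gene. Hippocampus RNA and footprint files hold whole counts per gene, not normalized, as deposited. Tools listed without roles in the submitters' processing notes are featureCounts, Bowtie2 2.2.3, HISAT2 2.1.0 and kallisto 0.42.4, with the build mm10. Per the labels, forebrain libraries were depleted of ribosomal RNA and mark the strand, and hippocampus RNA libraries were poly(A)-selected and do not. Whether counting used the strand is not given in the sources used here. Spans overlap for Ssb and Mettl5 (652 bases) and for Xpot and Gm35816 (996 bases), among others. The headers of the hippocampus files name B6JN mice, where the labels give C57BL/6NJ.

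Tests used edgeR 4.0.16 in R 4.3.3 (TMM scaling, filterByExpr with a minimum count of 10, two-sided and robust quasi-likelihood test), and p-values were adjusted by Benjamini-Hochberg across every gene tested, at a threshold of 0.05, in 11 comparisons. Batch 1 forebrain (16 libraries), all forebrain (21 libraries, batch term, transgenic mouse 4 with a coefficient of its own), hippocampus RNA, footprints, and both hippocampus assays with an interaction were fitted apart. Biological coefficients of variation were 7.04%, 7.87%, 14.0%, 12.9% and 13.2%. Alternatives were DESeq2 1.42.0, RLE size factors, no filter, a transcript length offset, only the groups compared, a replicate block, no batch term, a sex term and leaving out each library. Libraries of 1 group differed beyond sampling noise in all 42 pairs (chi-square per degree of freedom at least 2.92). Equal replicate numbers did not pair the genotypes or strains compared. Between assays, the 3 B6N hippocampus pairs of RNA and footprints correlated at 0.118 to 0.175 and the knockout pairs at -0.19 to 0.15. Tests were checked on simulated data, where signs, sizes and false calls came out as simulated in every fit. Power was low for translational efficiency, where few of the smaller known changes were recovered and the share of larger ones recovered varied with the random draw.

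The 38 genes and all lists were chosen with earlier results of these data known. Values per library are given for genes called in a comparison, for Polr3g, Polr3gl and Maf1, and for the 2 genes of smallest unadjusted p where none was called; other pathway genes are named where called.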

Additional observations from a re-analysis of the deposited data

Results flagged for a closer look

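Single libraries stood apart from the other 3 of their forebrain group in 10 of 190 combinations of gene and group (5.26%), by a gap to the nearest library that exceeded Dixon's 95% critical value, and chance flags about 1 in 20 groups. In B6J, mouse 2 was high for Gtf3c1 (159.3 CPM, the others 153 to 154) and low for Gtf3c5 (9.69 CPM, the others 11.05 to 11.2), mouse 1 was high for Tsen34 (25.8 CPM, the others 23.1 to 23.3) and Ftsj1 (15.4 CPM, the others 12.9 to 13.2), mouse 3 was high for Trnt1 (38.7 CPM, the others 32.5 to 33.3), and mouse 4 was low for Gtf3c2 (39.1 CPM, the others 42.4 to 42.5). In B6N knockout, mouse 4 was high for Polr3f (31.6 CPM, the others 28.6 to 29.0) and mouse 3 for Trnt1 (37.1 CPM, the others 35.0 to 35.3). Brf2 was low in B6J knockout mouse 4 (8.06 CPM, the others 10.3 to 10.5), and Adat2 was high in B6N mouse 2 (2.47 CPM, the others 2.24 to 2.25).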

How the results depend on the processing

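For B6N knockout over B6N in forebrain, the count of 1 called gene became 2 when only these groups were fitted (adding Polr3e) and 0 with the transcript length offset, and was 1 to 2 with each library left out. For B6J over B6J transgenic, the count of 0 became 1 (Elac1) with DESeq2 and 1 without the filter, and was 0 to 1 with a library left out, as for B6J over B6N (0 to 1, Elac1 without B6J mouse 3). For B6J knockout over transgenic mice the count of 0 became 1 (Rtcb) with DESeq2 and 8 without the batch term. Over B6J mice it became 4 without the batch term. Without that term batch and knockout cannot be told apart, and many other genes were called over transgenic mice, as counted above. The share of all genes called over B6J mice is not given, so neither count is a result about these genes. In footprints the count of 3 was 0 to 3 with a library left out and 0 with the replicate block, where the edgeR adjusted p were 0.0515 for Ssb, 0.0533 for Xpot and 0.054 for Elp3. Replicate numbers did not pair the genotypes or strains compared (correlations of same-numbered deviations from -0.41 to 0.17, with no 2 groups over 0.1 in every pair). Between assays every B6N hippocampus pair was over 0.1 and not every knockout pair was, and translational efficiency kept a count of 0 with the block. The block changed no other count beyond 1.5 times. The counts of 0 in the other comparisons stayed 0 to 0 with a library left out. The median level of the 38 genes in B6N was 26.2 TPM over coding transcripts alone, against 6.23 TPM over all. The fit without transgenic mouse 4 was not run for B6J knockout, because its pair of libraries sets the batch term. The causes were not tested. Few counts limit Adat3 in forebrain (2.35 to 23.2 estimated counts per library) and Polr3g (4 to 17) and Gtf3c2 (13 to 38) in footprints.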

Other observations

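Adat3, which was not tested in hippocampus, overlaps Scamp4 over 4773 bases. Scamp4 had 10.5 to 16.8 CPM in forebrain libraries and 0.137 to 0.487 CPM in hippocampus RNA libraries. In footprint libraries it had 34.0 to 43.8 CPM.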
